A study of Mus musculus with 8 samples.

Results

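Genes of the PI3K, AKT and FOXO pathway were examined in regulatory T cells (Treg), a Foxp3-dependent class of CD4 T cells that limits immunity. The group held 8 of 21887 protein-coding genes: Pik3cd, Pik3r1, Inpp5d, Akt1, Akt2, Phlpp1, Foxo1 and Foxo3. They were chosen by name, and each was measured over its RefSeq span (build mm10) with 5 kb on both sides, 790.4 kb in all. The histone mark H3K9me2, dimethylation at a lysine of histone H3 and typical of silent genes, was mapped with CUT&RUN, where a nuclease tethered by an antibody releases the marked DNA. The 6 CUT&RUN libraries were from Treg of tumours, 3 of them from mice whose Treg lack Jmjd1c (Jmjd1c TregcKO, here cKO), which encodes a member of the H3K9 demethylase family, and 3 from wild-type (WT) mice. Accessible DNA was mapped with ATAC-seq, where a transposase inserts adapters into open sites, with 1 library of WT tumour Treg and 1 of WT spleen Treg. All mice were C57BL/6 aged 8 to 12 weeks. The driver of the deletion and the tumour model are not given in the sources used here.

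Class I PI3 kinases turn signals from the antigen receptor, CD28 and cytokine receptors into the membrane lipid PIP3, which recruits and activates the kinase AKT. AKT phosphorylates FOXO transcription factors and thereby moves them out of the nucleus. In Treg this matters because FOXO1 and FOXO3 help to induce Foxp3 and maintain a quiescent, lymphoid-homing state, and strong AKT signalling is known to weaken Treg function. The lipid phosphatase SHIP-1 and the protein phosphatase PHLPP1 act against the pathway.

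The H3K9me2 libraries held 24774509 to 30313851 tags and the ATAC libraries 11293674 (tumour) and 11068821 (spleen). All values came from the authors' peaks, called 1 library at a time. H3K9me2 was compared as the percent of a span covered by peaks, with n = 3 in each group. H3K9me2 peaks covered 3.63 to 5.36% of the genome in cKO and 3.39 to 4.10% in WT, and cKO replicate 1 stood highest. Nothing in the labels says that replicates came from separate animals, so the p-values measure the spread between these libraries, part of which may be technical. In the header lines cKO replicates 1 and 3 carry 1 knockout number and may share a source. The header names also differ in form between genotypes, and any batch behind them cannot be told apart from genotype. The Treg label was checked on 6 marker genes, of which 5 held ATAC peaks in tumour and in spleen (Foxp3, Il2ra, Ikzf2, Cd4 and Cd3e, with 23 and 9 peaks including those of Ikzf2). Ctla4 held 0 in both libraries. The 4 CD8 T and NK cell markers were at 0 in both. The 4 myeloid markers held 5 tumour peaks, at Spi1 and Itgam, and 0 spleen peaks, with Lyz2 and Csf1r at 0. B cell markers held 1 and 1, melanocyte and epithelial markers 1 and 1, and stromal and endothelial markers 8 and 3, of which 7 in tumour were at Pecam1, a gene that some leukocytes also use. The part of other cells in the tumour counts below was not tested.

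Accessible sites were compared first. The 8 genes held 40 ATAC peaks in tumour Treg and 16 in spleen Treg, or 40.0 spleen peaks for every 100 tumour peaks, where the whole lists held 27625 and 13078, or 47.3 for every 100. All 8 genes had a tumour peak (background 59.9% of all protein-coding genes) and 7 had a spleen peak (background 47.1%). 7 of 8 had more tumour than spleen peaks (background 33.4%), and the exception was Akt2, with 1 and 1. Most of these genes are long. Among the 8885 genes with spans between 31.1 and 232.4 kb, the range of the 8, the mean was 1.63 tumour and 0.819 spleen peaks, against 5 and 2 for the 8. Length was not matched within this range, and its part in that difference was not tested. When both lists were limited to the 13078 strongest peaks the 8 genes held 20 tumour and 16 spleen peaks. With 1 library per tissue these counts have no replicate check.

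Most spleen sites were also tumour sites. Of the 16 spleen peaks, 14 touched a tumour peak by at least 1 bp, or 87.5%, against 85.1% of all spleen peaks. In the other direction 14 of 40 tumour peaks touched a spleen peak, or 35.0% (background 40.3%). Tumour peaks within 1 kb of an annotated start of the gene were mostly shared, 6 of 8, and those farther away mostly were not, 8 of 32. Over all tumour peaks, with the starts of every gene, the shares were 5935 of 9127 and 5207 of 18498. Shared tumour peaks at the 8 genes had a median of 54.9 tags per 10000000 and tumour-only peaks 20.4, against 49.6 and 16.4 over the whole list. Tumour peaks were called at a width of 322 bp with at least 10 tags and spleen peaks at 869 bp with at least 15 tags and the part of these settings in the counts was not tested.

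**Figure D1:**
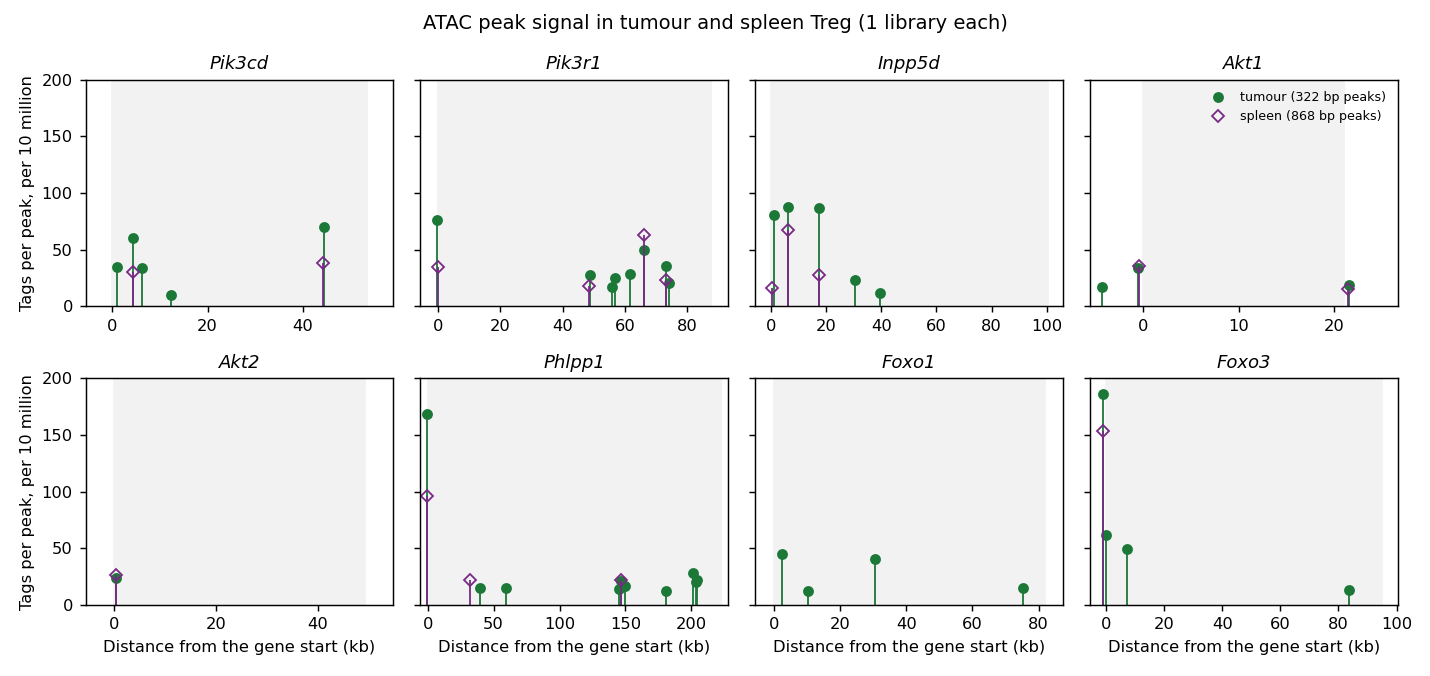
ATAC peaks at each gene by distance from its annotated start (x axis, kb) and the authors' tag count per peak scaled to 10000000 tags (y axis). Filled green circles are tumour peaks of 322 bp, open purple diamonds are spleen peaks of 868 bp, grey marks the gene, and Foxo1 shows 4 tumour peaks and 0 spleen peaks.

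Where a tumour peak lies wholly inside a wider spleen peak, a larger tag count in the narrower tumour window means a higher scaled signal at that site in the tumour library. There were 12 such pairs at the 8 genes, and the tumour count was the larger in 8 of them, or 66.7%, against 8141 of 10323, or 78.9%, over the whole lists. The share of tags in peaks was 11.03% in tumour and 4.77% in spleen, so the libraries differ in overall contrast.

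Foxo1 encodes the FOXO factor that drives Klf2 and Il7r in resting T cells. It lies on chromosome 3 (52268337 to 52350109, plus strand) and had 4 tumour peaks and 0 spleen peaks. The tumour peaks were centred 2.39, 10.3, 30.5 and 75.4 kb past the gene start and held 45.2, 12.4, 40.3 and 15.1 tags per 10000000, so the first and the third were the stronger. A tumour peak with no spleen peak was found at 14.1% of all genes, and 131 of the 1322 genes with 4 or more tumour peaks (9.91%) had 0 spleen peaks. The nearest spleen peak lay 40.9 kb outside the span. Foxo1 still had 0 spleen peaks with 20 kb on both sides, and had 2 tumour peaks when both lists were cut to the same length.

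Foxo3, on chromosome 10 (42181845 to 42276695, minus strand), encodes the related factor FOXO3. It held the strongest ATAC site of the 8 genes, centred 1.09 kb upstream of the start (chr10:42277626-42277948), with 185.9 tags per 10000000 in tumour and 153.1 in the spleen peak that contains it. A second tumour peak of 61.5 tags lay over the start itself (chr10:42276587-42276909), and no spleen peak touched it. Further tumour peaks of 49.6 and 12.8 tags lay 7.23 and 83.5 kb past the start, and these were also tumour-only.

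Phlpp1, on chromosome 1 (106171869 to 106394245, plus strand), encodes a phosphatase that removes an activating phosphate from AKT. Its start carried a shared site of 168.2 tags in tumour (chr1:106171328-106171650) and 95.8 in spleen. Across the remaining gene there were 9 tumour peaks of 12.4 to 28.3 tags and 2 spleen peaks of 22.1 tags each, of which 1 met a tumour peak.

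Pik3r1, on chromosome 13 (101680761 to 101768217, minus strand), encodes p85alpha, the regulatory subunit that stabilizes the catalytic subunits of class IA PI3 kinases. It held 8 tumour and 4 spleen peaks, and all 4 spleen peaks met a tumour peak. The peak over the main start had 76.1 tags in tumour and 34.3 in spleen, while a site 66.0 kb into the gene had 50 tags in tumour and 62.8 in the wider spleen peak. Pik3cd, on chromosome 4 (149649168 to 149702566, minus strand), encodes p110delta, the catalytic subunit that predominates in leukocytes. It held 5 tumour and 2 spleen peaks, with 69.5 and 38.4 tags at a shared site 44.3 kb into the gene.

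Inpp5d, on chromosome 1 (87620312 to 87720510, plus strand), encodes SHIP-1, which removes the 5-position phosphate of PIP3. Its 3 strongest tumour peaks had 80.1, 87.2 and 86.3 tags at 1.38, 6.27 and 17.3 kb past the start. The second and the third lay inside spleen peaks of 66.9 and 27.6 tags. Near the start the libraries differed in place, with a weak spleen peak of 15.8 tags centred 0.458 kb past the start that no tumour peak touched.

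The AKT kinase genes had the fewest tumour peaks, although per length Akt1 held the most, 9.66 per 100 kb. Akt1, on chromosome 12 (112653821 to 112674884, minus strand), held 3 tumour and 2 spleen peaks, with 34.1 and 35.2 tags just upstream of its start. Akt2, on chromosome 7 (27591552 to 27640826, plus strand), held 1 peak in each library, 0.399 and 0.468 kb past the start, with 23.9 and 26.7 tags.

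Promoter sequences show where the open sites sit against the annotated starts. RefSeq windows of GRCm38.p6 from 250 bases before to 50 bases after a start were matched for all 8 genes (15 windows). The 4 below were chosen because the tumour peak covers most of the window, only its upstream end or none of it. Each reads 5′ to 3′ along the gene, and capitals mark bases inside a tumour ATAC peak.
Pik3r1 (chr13:101768168-101768467, minus strand): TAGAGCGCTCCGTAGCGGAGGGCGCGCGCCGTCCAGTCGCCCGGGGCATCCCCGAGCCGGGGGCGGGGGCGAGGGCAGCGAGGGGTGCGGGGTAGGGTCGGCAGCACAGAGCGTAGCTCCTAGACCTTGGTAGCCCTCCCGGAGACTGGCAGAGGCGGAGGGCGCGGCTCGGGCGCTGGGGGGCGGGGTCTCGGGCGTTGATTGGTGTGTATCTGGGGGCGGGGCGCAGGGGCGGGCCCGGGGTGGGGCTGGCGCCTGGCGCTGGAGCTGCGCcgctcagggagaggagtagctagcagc
Foxo3 (chr10:42276646-42276945, minus strand): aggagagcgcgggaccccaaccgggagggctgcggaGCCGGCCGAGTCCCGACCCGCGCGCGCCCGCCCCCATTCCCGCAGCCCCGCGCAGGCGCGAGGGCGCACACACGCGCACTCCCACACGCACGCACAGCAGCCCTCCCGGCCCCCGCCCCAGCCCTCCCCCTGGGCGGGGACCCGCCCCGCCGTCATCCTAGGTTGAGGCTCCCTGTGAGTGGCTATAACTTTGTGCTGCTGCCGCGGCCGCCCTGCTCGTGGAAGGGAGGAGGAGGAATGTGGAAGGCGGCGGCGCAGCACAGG
Phlpp1 (chr1:106171619-106171918, plus strand): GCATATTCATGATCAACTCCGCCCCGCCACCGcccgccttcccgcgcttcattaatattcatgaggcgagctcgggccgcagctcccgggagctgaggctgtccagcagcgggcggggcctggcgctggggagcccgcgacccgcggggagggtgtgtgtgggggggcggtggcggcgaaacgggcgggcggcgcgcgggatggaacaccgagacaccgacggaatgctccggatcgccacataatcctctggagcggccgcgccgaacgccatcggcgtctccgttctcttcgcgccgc
Foxo1 (chr3:52268087-52268386, plus strand): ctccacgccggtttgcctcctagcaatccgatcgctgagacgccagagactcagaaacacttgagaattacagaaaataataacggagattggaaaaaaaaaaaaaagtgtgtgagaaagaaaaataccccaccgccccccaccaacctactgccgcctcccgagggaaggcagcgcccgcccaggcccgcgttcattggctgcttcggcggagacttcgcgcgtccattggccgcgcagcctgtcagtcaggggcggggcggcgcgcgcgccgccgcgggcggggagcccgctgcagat

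The tumour peak covered 273 of 300 bases at Pik3r1, 264 at Foxo3 and 32 at Phlpp1, and 0 at Foxo1. The spleen peaks covered 300 bases at Pik3r1 and Phlpp1 and 0 at Foxo3 and Foxo1. All 4 windows were rich in G and C, at 75.7, 75.0, 70.7 and 61.3%, against a median of 56.3% over 21263 windows of protein-coding genes. GC boxes (GGGCGG, both strands) occurred 4 times at Pik3r1, 6 times at Phlpp1 and 5 times each at Foxo1 and Foxo3, counting overlapping matches, and 46.2% of all windows held at least 1. CCAAT boxes (CCAAT, both strands) were found 3 times at Foxo1 and 1 time at Pik3r1, and 38.2% of all windows held at least 1. The ETS core CCGGAA, searched on both strands and present in 18.7% of windows, was in 0 of the 15. The forkhead core TGTTTAC, searched on both strands and present in 3.01% of windows, was in 1 of the 15, the outer window of Akt1, of which a spleen peak covered 172 bases and a tumour peak 0. It is printed here with the match in capitals.
Akt1 (chr12:112674835-112675134, minus strand): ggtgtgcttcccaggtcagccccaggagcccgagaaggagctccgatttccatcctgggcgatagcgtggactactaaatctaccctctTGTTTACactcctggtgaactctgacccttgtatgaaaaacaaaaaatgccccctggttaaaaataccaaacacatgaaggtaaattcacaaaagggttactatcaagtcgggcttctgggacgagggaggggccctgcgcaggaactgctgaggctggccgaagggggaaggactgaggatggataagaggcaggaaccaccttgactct

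None of the 5 windows printed here was touched by an H3K9me2 peak in any of the 6 libraries. Among the other 10 windows the only contact was at an inner start of Akt2 in WT replicate 3.

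H3K9me2 was compared next between cKO and WT. Peaks at the 8 genes numbered 51, 57 and 53 in the cKO libraries (here and below in the order of replicates 1 to 3). The WT libraries held 23, 45 and 44, so the groups did not overlap. How often joint counts of other gene groups do so was not counted. Phlpp1 alone held 79 of the 161 cKO peaks and 57 of the 112 WT peaks, so the joint values describe this gene in large part. Peaks at the 8 genes covered 4.15, 4.97 and 5.33% of the joint span in cKO and 2.42, 3.37 and 3.32% in WT. Divided by the genome-wide coverage of the same library these became 0.774, 1.12 and 1.47 times in cKO and 0.623, 0.822 and 0.978 times in WT, and the groups overlapped. Peaks here were short and weak: the median length was 500 bp in each library, against 628 to 635 bp over all peaks, and the median signal was 1.93 to 2.83 tags per 10000000, against 3.38 to 4.64 over all peaks.

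All 8 genes passed the filter of a mean of 1% over the 6 libraries, as did 19016 of all genes. With limma and Benjamini-Hochberg adjustment 0 of the 8 passed an adjusted p of 0.05 (background 0%), and 0 had an unadjusted p under 0.05 (background 7.43% higher and 0.941% lower in cKO). The mean was higher in cKO at 6 of 8 (background 71.1%). Every cKO library lay above every WT library at 2 genes, Pik3r1 and Phlpp1 (background 13.0%), and below them at 0 genes (background 1.34%). The median difference over the 8 was 1.32 percentage points, against 1.26 over all genes tested, and without WT replicate 1 these were 0.779 and 1.03. These shares were near the background or rest on few genes, and nothing particular to the 8 can be read from them. Scaling by genome-wide coverage gave medians of 1.09 percentage points over the 8 and 0.708 over all genes tested.

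**Figure D2:**
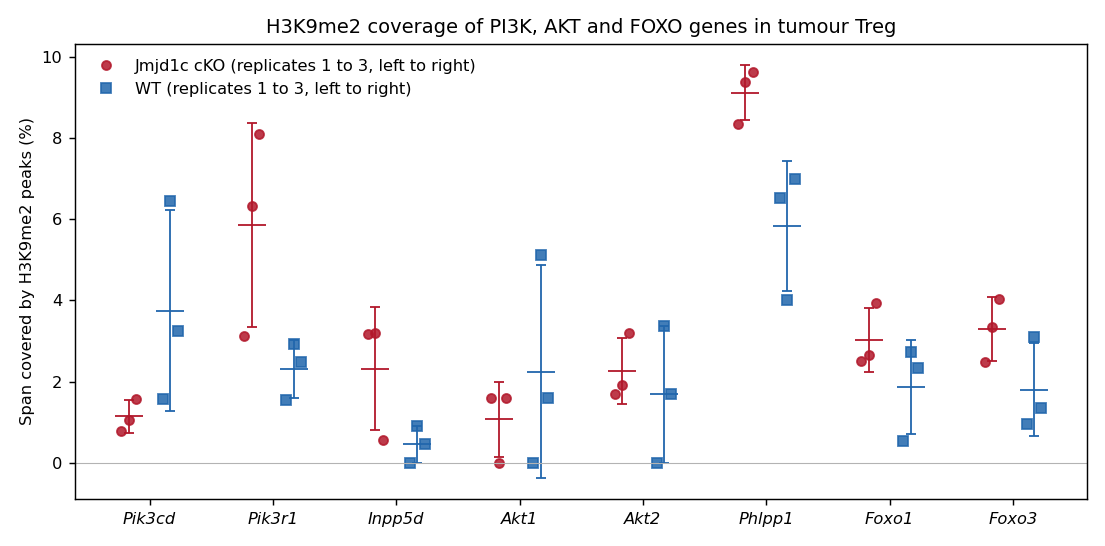
Percent of each gene span with 5 kb on both sides covered by H3K9me2 peaks (y axis) in 3 cKO libraries (red circles) and 3 WT libraries (blue squares), with the mean as a dash and the SD as bars. Phlpp1 lies highest, with 8.34 to 9.63% in cKO and 4.01 to 6.98% in WT, and Pik3r1 is the other gene whose groups do not overlap.

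Among the kinase subunits, the mean in cKO was higher at Pik3r1 and lower at Pik3cd, and neither gene passed in limma. Pik3r1 was covered over 3.13, 6.33 and 8.08% in cKO and 1.54, 2.92 and 2.47% in WT. Each cKO library lay above each WT library, although cKO replicate 1 was close to WT replicate 2. The difference was 3.54 ± 1.73 percentage points (SE; limma adjusted p = 0.568). Divided by genome-wide coverage, cKO replicate 1 fell to 0.585 times and WT reached 0.729 times, so the groups overlapped. The peaks of Pik3r1 were scattered in both genotypes: of the bases covered in any library of a group, 6.10% in cKO and 6.51% in WT were covered in 2 or 3 of them. There were 24 peaks in cKO and 12 in WT. A stretch of 500 bp 2.88 kb upstream of the start (chr13:101770849-101771349) was covered in cKO replicates 2 and 3 and in 0 WT libraries. WT replicate 2 had a peak close beside it (chr13:101770208-101770708), so the region was not free of peaks in WT. A stretch of 413 bp at chr13:101719478-101719891, covered in WT replicates 1 and 3 and in 0 cKO libraries, met an ATAC site shared by tumour and spleen.

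Pik3cd was covered over 0.789, 1.06 and 1.58% in cKO and 1.58, 6.44 and 3.24% in WT. It was low in each cKO library and more variable in WT, and the groups met at cKO replicate 3 and WT replicate 1, each with 1000 bp. The difference was -2.61 ± 1.52 percentage points (SE; limma adjusted p = 0.593), and -1.26 without WT replicate 2. It stood at the 7.14th percentile of all differences tested. There were 4 peaks in cKO against 12 in WT, and 0 bases were covered in more than 1 cKO library.

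Phlpp1 had a larger part of its span covered by H3K9me2 peaks than the other members in 5 of 6 libraries, and in WT replicate 2 Pik3cd and Akt1 were higher. It was covered over 8.34, 9.38 and 9.63% in cKO and 6.52, 4.01 and 6.98% in WT, or 9.12 ± 0.687% and 5.84 ± 1.60% (SD, n = 3). The groups did not overlap, with a difference of 3.28 ± 1.96 percentage points (SE; limma adjusted p = 0.602). Relative to genome-wide coverage the values were 1.56, 2.11 and 2.65 times in cKO and 1.68, 0.980 and 2.06 times in WT, which overlap. Its mean ranked at the 93.6th percentile of all genes in cKO and the 85.3rd in WT.

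Stronger peaks at the 8 genes were found almost entirely in Phlpp1. When each list was limited to the stronger 50% by the authors' score, Phlpp1 kept peaks in 6 of 6 libraries, with 2.66, 5.42 and 4.82% in cKO and 1.72, 0.918 and 1.07% in WT. The groups did not overlap, and the share of all genes without overlap was not counted for this setting. The difference was 3.06 percentage points (limma adjusted p = 0.632), against a median of 1.01 over the genes tested in this setting. Those were the 6985 genes that still had a mean of 1% or more, and Phlpp1 was the only member among them. Pik3r1 kept peaks in 3 libraries, Inpp5d in 1, and Pik3cd, Akt1, Akt2, Foxo1 and Foxo3 in 0. With lists of equal length the Phlpp1 groups overlapped, at 5.69 to 9.41% in cKO and 2.36 to 6.98% in WT.

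**Figure D3:**
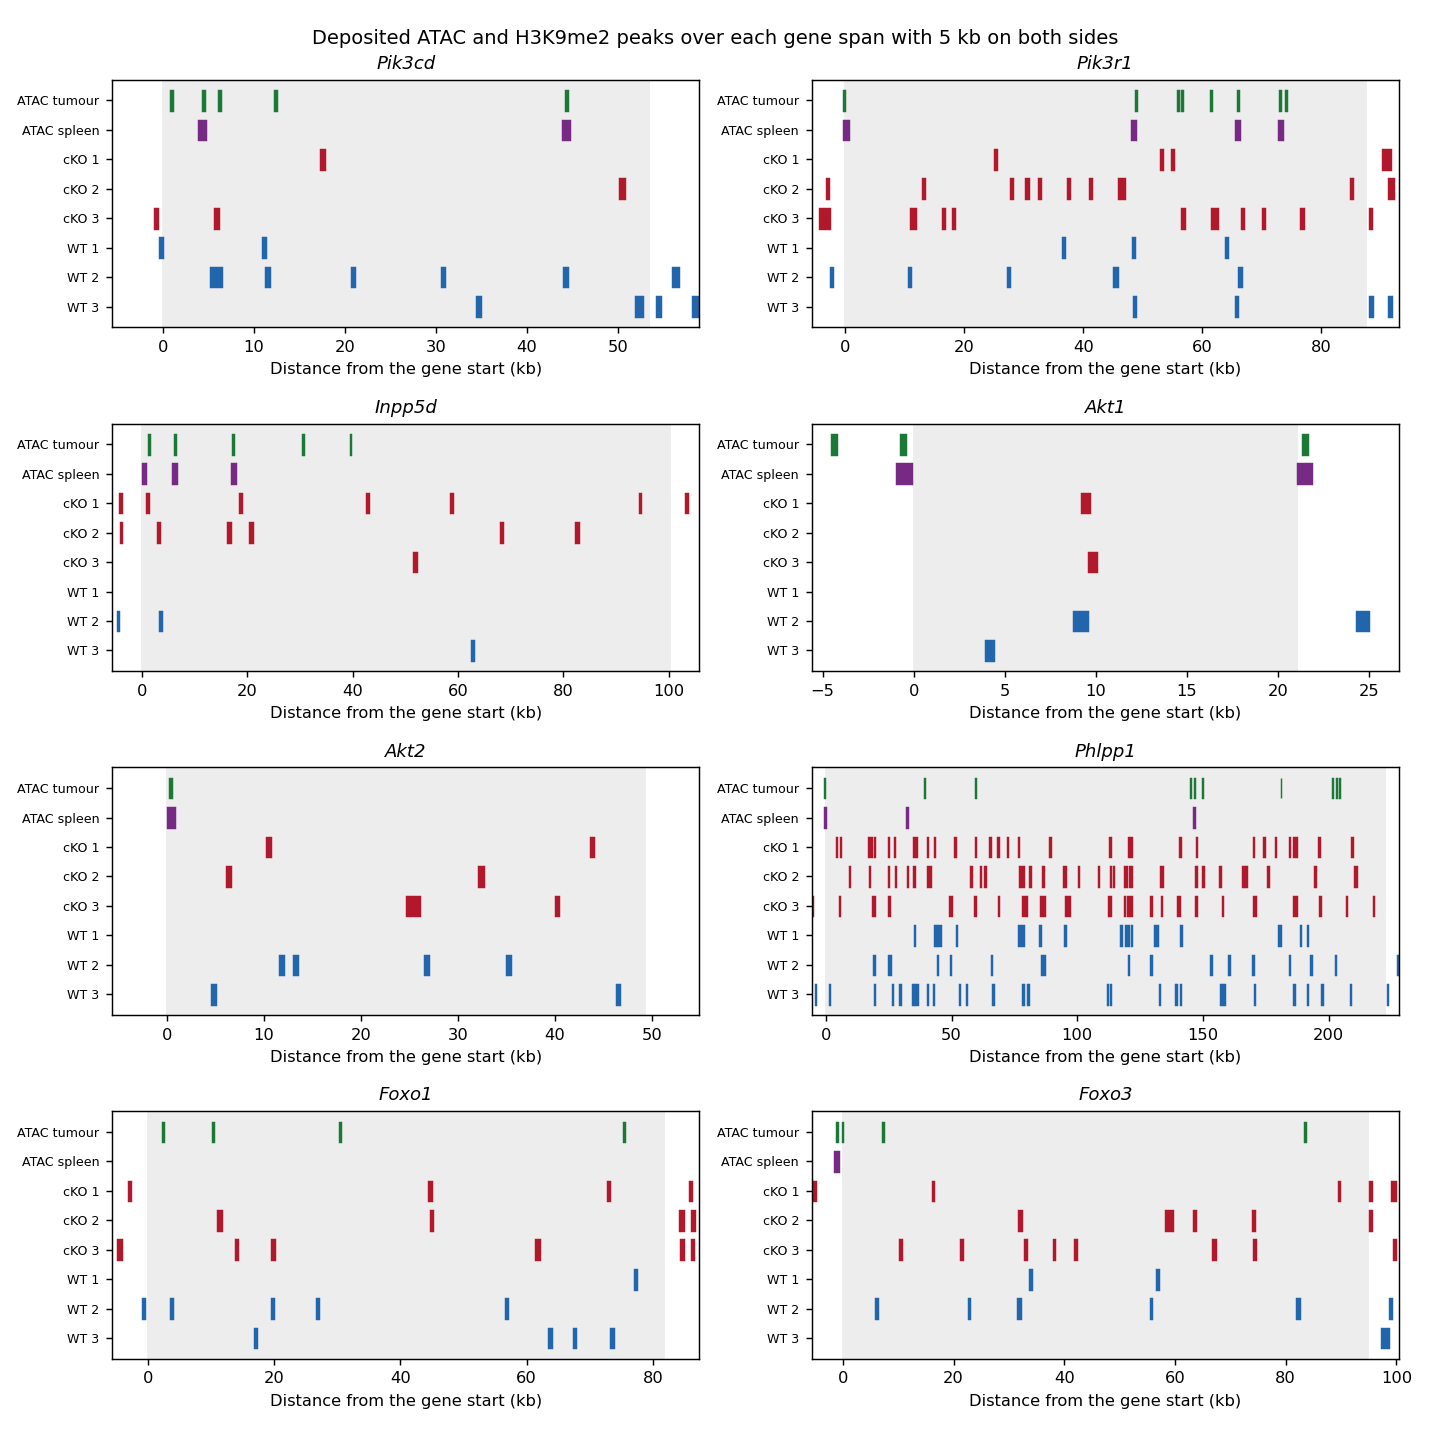
Positions of all deposited peaks over the 8 genes by distance from the annotated gene start (x axis, kb), with 1 row per library, grey marking the gene and the width of a bar the width of a peak. H3K9me2 peaks (red, cKO, and blue, WT) are dense across Phlpp1. Past the end of Foxo1 peaks recur in cKO rows with 0 in WT rows, and the frequency of this over all genes was not counted.

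The phosphatase gene Inpp5d was among the least covered of all genes in WT, at the 15.8th percentile. It had 3.18, 3.21 and 0.570% in cKO and 0, 0.907 and 0.454% in WT. cKO replicates 1 and 2 were high and cKO replicate 3 lay within the WT range. The difference was 1.86 ± 1.12 percentage points (SE; limma adjusted p = 0.603), and it was 0.132 with lists of equal length.

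At the AKT genes the genotypes could not be told apart either, and the sign of each difference changed when 1 library was left out. Akt1 had 1.61, 0 and 1.61% in cKO and 0, 5.13 and 1.61% in WT, where each 1.61% is a peak of 500 bp. Its difference of -1.17 ± 1.5 percentage points (SE; limma adjusted p = 0.793) became 0.268 without WT replicate 2. Akt2 had 1.69, 1.91 and 3.19% in cKO and 0, 3.37 and 1.69% in WT. Its difference of 0.576 ± 1.28 percentage points (SE; limma adjusted p = 0.883) became -0.267 without WT replicate 1.

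Foxo1 had 2.50, 2.66 and 3.93% in cKO and 0.545, 2.72 and 2.34% in WT. WT replicate 1 was low and the other WT libraries reached into the cKO range. The difference was 1.16 ± 1.26 percentage points (SE; limma adjusted p = 0.750), and 0.496 without WT replicate 1. It was not present over the gene alone, where the values were 1.43, 1.56 and 2.15% in cKO and 0.611, 2.45 and 2.63% in WT, a difference of -0.181. Past the gene end, all 3 cKO libraries covered a common 162 bp within the stretch chr3:52354284-52354784, where 0 WT libraries had a peak. A second stretch there, chr3:52352695-52353195, was covered in cKO replicates 2 and 3 and in 0 WT libraries. How often stretches covered in only 1 genotype occur over all genes was not counted, here or at the other members. Stretches covered in WT libraries alone also occurred, including at Pik3r1 and Phlpp1.

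Foxo3 had 2.47, 3.35 and 4.04% in cKO and 0.954, 3.10 and 1.35% in WT. WT replicate 2 overlapped the cKO libraries, and the others were lower. The difference was 1.49 ± 1.27 percentage points (SE; limma adjusted p = 0.675), and it was 0.587 with lists of equal length. A stretch of 500 bp at the far end of the span (chr10:42176846-42177346) was covered in cKO replicates 1 and 3, which may share a source, and in 0 WT libraries. Close beside it lay peaks of WT replicate 2 (chr10:42177599-42178099) and WT replicate 3 (chr10:42178101-42179516), so the region was not free of peaks in WT.

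In WT the order by mean coverage was Phlpp1, Pik3cd (3.75 ± 2.47%), Pik3r1 (2.31 ± 0.705%), Akt1 (2.25 ± 2.62%), Foxo1 (1.87 ± 1.16%), Foxo3 (1.80 ± 1.14%), Akt2 (1.69 ± 1.69%) and Inpp5d (0.454 ± 0.454%). Each gene in this order differed from the next by less than the larger of their SDs. In cKO it was Phlpp1, Pik3r1 (5.85 ± 2.51%), Foxo3 (3.29 ± 0.784%), Foxo1 (3.03 ± 0.782%), Inpp5d (2.32 ± 1.51%), Akt2 (2.26 ± 0.811%), Pik3cd (1.14 ± 0.400%) and Akt1 (1.07 ± 0.929%). By the same measure the neighbours from Foxo3 to Akt2 and the last pair did not differ, and the other 3 steps were larger than the SD.

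Recurrence of covered bases between libraries was set mostly by Phlpp1. Of all bases of the 8 spans covered in any cKO library, 17.2% were covered in 2 or 3, against 12.5% genome-wide, and in WT it was 4.88% against 11.6%. Bases covered in all 3 libraries numbered 2029 in cKO, 1867 of them in Phlpp1 and 162 in Foxo1, and 0 in WT. Without Phlpp1 the shares were 8.87% in cKO and 1.76% in WT, both below the genome-wide ones. By gene, the share was higher in cKO at Phlpp1 (25.0 and 7.41%), Foxo1, Foxo3, Akt1 and Inpp5d, lower at Pik3r1 and Pik3cd (0 and 1.83%), and 0 in both at Akt2. More bases of the 8 spans were covered in cKO, and the part of this in the share that recurs was not tested.

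Some of the genes lay in a dip of H3K9me2 peak coverage. Foxo1, Foxo3 and Inpp5d were covered less than the 100 kb on each side of their spans in 6 of 6 libraries (background 14.9% of all genes). The other members were below their flanks in 5 libraries at Pik3r1 and Akt2, 4 at Phlpp1, 3 at Pik3cd and 2 at Akt1. The flanks of Inpp5d were covered over 6.94 ± 0.413% in cKO and 3.68 ± 0.243% in WT (SD, n = 3), and those of Foxo3 over 7.75 ± 0.393% and 4.67 ± 1.15%. At both genes, but at no other member, each cKO flank value lay above each WT value (background 23.2% of all genes). That share of the members was near the background. The flanks of Foxo1 had 5.84 ± 1.52% and 3.39 ± 1.40%, with overlap. Phlpp1 had no such pattern, with 8.06 ± 3.04% and 8.22 ± 1.53% in its flanks.

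H3K9me2 peaks touched a minority of open sites, both at the 8 genes and over all tumour ATAC peaks. The share expected from genome-wide coverage alone was not computed, so avoidance of open sites cannot be read from these counts. Of the 40 tumour ATAC peaks, the cKO libraries touched 2, 1 and 4 (backgrounds 8.49, 9.91 and 7.51% of all tumour peaks), or 5, 2.5 and 10%. The WT libraries touched 2, 3 and 2 (backgrounds 4.85, 9.37 and 7.67%), or 5, 7.5 and 5%. Counts this small did not separate the genotypes. 4 of the 40 sites were touched in 2 libraries each: a site 59.5 kb into Phlpp1 in cKO replicates 1 and 3, a site 66.0 kb into Pik3r1 in WT replicates 2 and 3, a site 48.8 kb into Pik3r1 in WT replicates 1 and 3, and a site 6.16 kb into Pik3cd in cKO replicate 3 and WT replicate 2. The 4 Foxo1 and 4 Foxo3 sites were touched in 0 libraries.

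The wider pathway was described with a list of 28 other PI3K, AKT and mTOR genes, of which 26 passed the filter. In cKO 23 were higher (background 71.1%), 2 lower and 1 equal, with a median difference of 2.30 percentage points against 1.26 over all genes tested, and 0 passed an adjusted p of 0.05 in limma. The groups did not overlap at 11 of 26, all higher in cKO (background 13.0%). By unadjusted limma p under 0.05, 1 of 26 was higher in cKO (background 7.43%) and 0 lower (background 0.941%). The measures thus fell on different sides of the background, and the part of gene length or genome-wide coverage was not tested. The smallest p-values were those of Tsc2, a brake on mTORC1, with 2.42, 3.59 and 4.95% in cKO against 0% throughout WT (limma adjusted p = 0.530), and of Sgk1, a kinase that also phosphorylates FOXO factors, with 8.19 ± 2.37% and 3.84 ± 0.523% (limma adjusted p = 0.568). Pdpk1, which encodes the kinase that activates AKT, had 3.26 ± 1.01% and 0.725 ± 0.314%. Pik3cg, which encodes p110gamma, had 7.40 ± 1.63% and 3.58 ± 1.15% (SD, n = 3).

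Of 14 listed FOXO target genes, which include the Treg markers Foxp3, Ctla4 and Il2ra, 11 passed the filter, 10 were higher in cKO (background 71.1%) and 1 equal, while the median difference was 1.56 percentage points against 1.26 over all genes tested, and 0 passed in limma. The groups did not overlap at 1 of 11 (background 13.0%), S1pr1, which encodes the sphingosine phosphate receptor used to leave lymph nodes, with 12.0, 8.66 and 6.84% in cKO and 0, 3.42 and 3.42% in WT (limma adjusted p = 0.519). Il7r, the interleukin-7 receptor gene, had 9.72 ± 2.81% and 5.83 ± 3.19%, Bach2, a repressor of effector programmes, 3.30 ± 1.15% and 1.74 ± 1.08%, and the chemokine receptor gene Ccr7 2.90 ± 2.58% and 1.03 ± 1.78%.

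**Figure D4:**
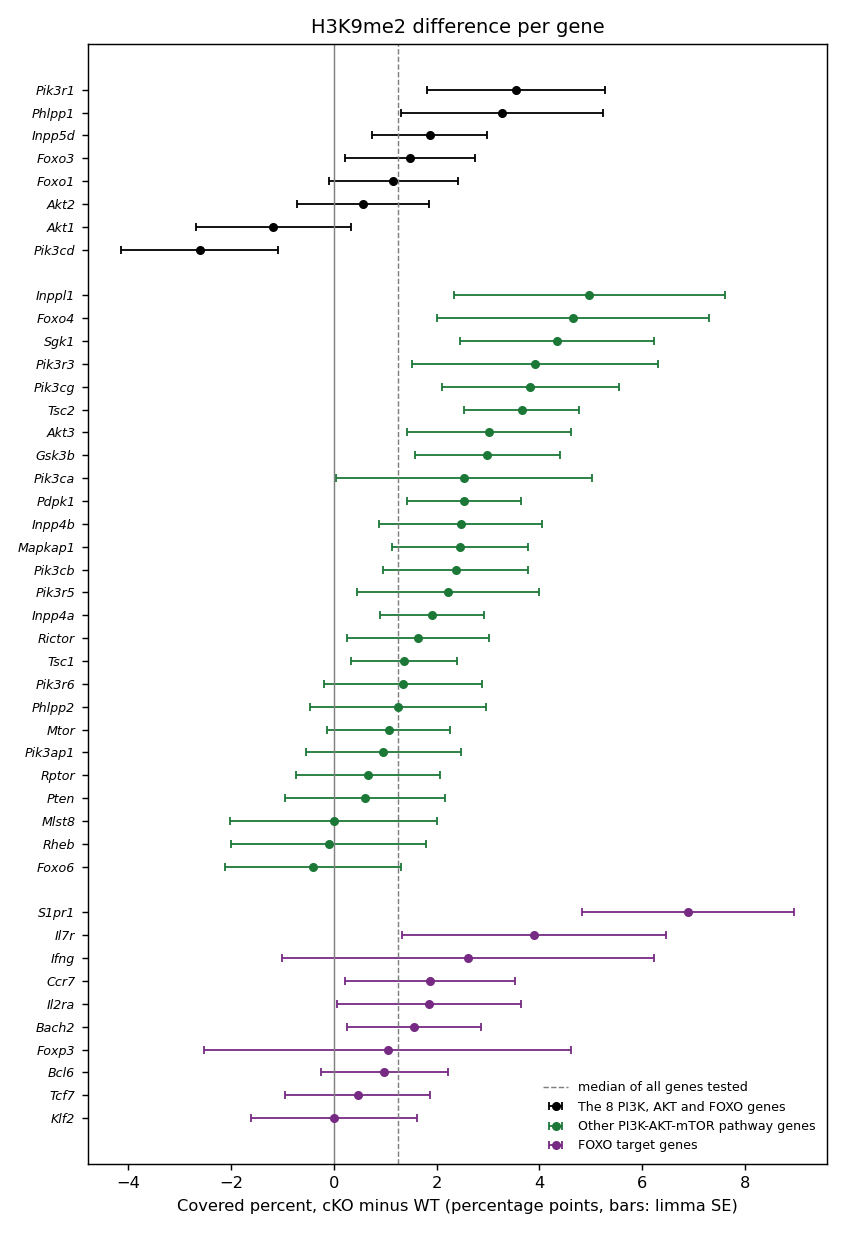
Difference in covered percent, cKO minus WT, in percentage points (x axis) for each tested gene of the 8 (black), of the wider pathway (green) and of the FOXO targets (purple), with limma SE as bars and the median of all genes tested, 1.26, as a dashed line. Pik3cd and Akt1 lie left of 0, while 23 of 26 pathway genes lie right of it, and 1 tested target is not drawn.

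More tumour than spleen peaks were found at 15 of 28 pathway genes and 7 of 14 targets (background 33.4%). The pathway list held 85 tumour and 39 spleen peaks and the target list 39 and 26. Tumour peaks with 0 spleen peaks were found at 5 of 28 and 2 of 14 genes (background 14.1%). The most tumour peaks were at Inpp4b, a PI3,4P2 phosphatase gene (17, with 6 in spleen), Rptor (7 and 2) and Sgk1 (7 and 3), and among the targets at Bach2 (15 and 11), followed by Bcl6, Tcf7 and Trib1 with 3 each.

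The genes whose coverage over the 6 libraries was most like the mean of the 8 were Abcd3, As3mt, Slc5a10, Zan and Zbtb10, with Pearson r of 0.990, 0.985, 0.983, 0.980 and 0.980. Each was lowest in WT replicate 1 and highest in cKO replicate 3, as was the mean of the 8, which ran from 1.39% to 4.08%. The 6 libraries differed in depth and list length, and every gene was measured in the same 6. Such values were picked as the highest of all genes tested and describe only these libraries.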

How the data were processed

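H3K9me2 CUT&RUN (3 cKO, 3 WT) and ATAC-seq (1 tumour, 1 spleen) peak lists were grouped by sample titles. Named in the submitters' processing notes, with no role for each, are the build mm10 and the tools HOMER, deepTools, Picard, SAMtools 1.11, Bowtie2 2.4.2 and Trim Galore 0.6.6. Peak calling by the authors used findPeaks of HOMER, 1 library at a time and with no control, per the file headers. The deposited lists give for each peak a tag signal scaled to 10000000 tags, a score in tags of the library and a fold (ratio) over the surrounding region. They were used as the authors' values to describe or rank peaks. H3K9me2 lists hold fewer peaks than their headers count, each with a fold of 2.01 or more, a filter that no header states. Coverage therefore measures local enrichment and not the amount of the mark.

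Peaks were merged within each library, and the covered percent of each RefSeq span with 5 kb on both sides entered a model of genotype in limma 3.58.1 (R 4.3.3, trended empirical Bayes) over 19016 protein-coding genes with a mean of 1% or more, called at a Benjamini-Hochberg adjusted p of 0.05. The script was tested on simulated data with differences larger than those seen at the 8 genes, so its power for differences of their size was not tested. ATAC peaks were compared by presence (overlap of at least 1 bp), with no test. Exon positions were not used here, and 1 gene of the target list is counted but not reported here by itself. The genes and lists were chosen with earlier results of these data known. Named were the 8 genes, the 4 genes with the smallest p and up to 3 with the most tumour peaks in each list (ties named), and the 5 genes most like the mean of the 8. Alternatives were other scalings, list lengths, flanks, filters, overlaps and left-out replicates.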

Additional observations from a re-analysis of the deposited data

How the results depend on the processing

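None of the 8 genes passed in limma under any of the alternatives where it was tested, with adjusted p-values from 0.327 to 1. Of 112 member values under alternatives, 102 kept their direction, 5 were 0, where no peak was left in the stronger 50% of the lists, and 5 reversed: Akt1 was 1.72 percentage points with 20 kb on both sides and 0.268 without WT replicate 2, Akt2 was -0.502 with 20 kb and -0.267 without WT replicate 1, and Foxo1 was -0.181 over the gene alone. With each replicate left out Akt1 ran from -2.30 to 0.268 and Akt2 from -0.267 to 1.42. The number of genes called over the genome was 0, but 1 on the arcsine square root scale and 12 with no filter on low coverage, and it ran from 0 to 0 with each replicate left out. The median difference over the 8 was 0.360 with lists of equal length and 0 with the stronger 50% of each list, where 5 of the 8 genes had no peak left. Over all genes tested in those settings it was 0.388 and 1.01. With the stronger 50% of the ATAC lists the tumour and spleen peaks numbered 21 and 10, and with lists of equal length the tumour peaks numbered 20, against 16 in spleen. The mean number of ATAC peaks touched per WT library was 2.33 but 1.33 with an overlap of 50% and 1.67 with lists of equal length, and that per cKO library was 2.33, 1.67 and 1.33. Leaving out each replicate, an alternative added after seeing the data, gave 1.5 to 3 in cKO and 2 to 2.5 in WT. The replicate block gave 0 genes called and 1484 with an unadjusted p under 0.05, against 1591 without it. Replicate numbers paired no samples by the labels, and same-numbered libraries had correlations of deviations of 0.0756, 0.00499 and 0.0260. The depth limit is that 1 peak of 500 bp is 1.61% of Akt1, so small differences at short genes rest on 1 peak.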
